A study of Rattus norvegicus with 24 samples.

Results

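The members described here are 9 genes that control or carry out apoptosis: the anti-apoptotic genes Bcl2 and Bcl2l1, the pro-apoptotic genes Bax and Bad, the adaptor gene Apaf1 and the caspase genes Casp1, Casp2, Casp6 and Casp9. A probe was taken as a member's when its RefSeq accession mapped to the member's symbol, and no measured value entered that choice. Of the 33849 rat probes on the array, 4674 were given a symbol in this way, and 9 of these mapped to 8 of the 9 genes. The remaining probes were not assigned to a gene. Bcl2l1 had 2 probes, and Bad is not analysed here because none of the probes named here mapped to it. RNA came from the retina of male Sprague Dawley rats and was hybridised to 24 CodeLink rat whole genome arrays of 1 colour, with 6 arrays in each of 4 groups by the labels. The study's animal data list fewer control rats at 1M than the labels give arrays, so it is not established that each 1M control array is a rat of its own. The groups were vehicle control and STZ at 1 month (1M) and the same at 3 months (3M). The age of the rats is not given in the sources used here. STZ is streptozotocin, a toxin of the insulin-producing beta cell that makes rats diabetic. It was injected once into the peritoneum in sodium citrate, the controls received that vehicle only, no rat was given insulin, and only rats with raised blood glucose entered the STZ groups. The model is therefore one of insulin deficiency. The 1M and 3M animals were separate sets that were raised and killed separately, so the age of the rats, the time with diabetes and the handling of the arrays cannot be told apart between them, and no test was made from one time to the other on levels.

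In the intrinsic pathway of apoptosis, BAX and its relatives open the outer mitochondrial membrane and are held back by BCL2 and BCL-xL, the long product of Bcl2l1. BAD binds BCL2 and BCL-xL and releases that hold. Cytochrome c that leaves the mitochondrion binds APAF1, which assembles into the apoptosome and activates the initiator caspase-9, and caspase-9 then cleaves the executioner caspases. Caspase-2 is an initiator that responds to DNA damage and other stress, while caspase-1 belongs to inflammation and matures interleukin-1 beta and interleukin-18. Most caspases are made as inactive precursors, so a transcript level does not measure their enzyme activity. Death of retinal neurons and of capillary cells is known in the diabetic retina.

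The promoters of Casp9 and Apaf1 are shown because these are the 2 members whose change at 3M passed the test, and that of Casp2 because its change came closest to it without passing. Each is the 300-base window from 250 bases before to 50 after the annotated start, taken from RefSeq on build GRCr8 and written 5′ to 3′ on the strand of the gene. Capitals mark every GC box, searched as GGGCGG on both strands. The Casp2 window lies at chr4:72116107-72116406 on the plus strand, that of Casp9 at chr5:159391824-159392123 on the plus strand, and that of Apaf1 at chr7:27466723-27467022 on the minus strand.
Casp2: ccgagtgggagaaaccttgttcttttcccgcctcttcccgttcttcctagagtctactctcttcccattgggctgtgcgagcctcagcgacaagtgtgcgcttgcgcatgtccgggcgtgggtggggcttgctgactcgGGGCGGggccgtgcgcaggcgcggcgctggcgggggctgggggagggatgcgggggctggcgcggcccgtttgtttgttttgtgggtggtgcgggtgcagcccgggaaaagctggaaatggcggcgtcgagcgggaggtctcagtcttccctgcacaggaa
Casp9: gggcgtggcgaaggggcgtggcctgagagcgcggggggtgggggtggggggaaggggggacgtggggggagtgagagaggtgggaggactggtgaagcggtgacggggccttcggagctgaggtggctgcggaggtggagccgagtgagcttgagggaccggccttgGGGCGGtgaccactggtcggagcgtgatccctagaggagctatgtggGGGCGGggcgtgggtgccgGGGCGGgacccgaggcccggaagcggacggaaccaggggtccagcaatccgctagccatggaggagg
Apaf1: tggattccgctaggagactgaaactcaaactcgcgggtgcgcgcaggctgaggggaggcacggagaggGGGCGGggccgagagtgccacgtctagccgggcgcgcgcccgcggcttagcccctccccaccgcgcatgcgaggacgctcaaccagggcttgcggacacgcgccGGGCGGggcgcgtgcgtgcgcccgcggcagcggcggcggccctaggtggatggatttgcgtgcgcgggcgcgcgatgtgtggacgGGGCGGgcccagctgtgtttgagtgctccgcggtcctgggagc

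Casp9 and Apaf1, whose products meet in the apoptosome, each held 3 GC boxes in their windows, and Casp2 held 1. A GC box was present in 33.1% of the 33469 windows of this length. Of the 11 windows of the members, 6 held one, each of a different gene among the 8 members with a window. No TATA box, searched as TATAAA on both strands, lay in these 3 windows, against 14.2% of all windows that hold one. The E2F words TTTGGCGC, TTTCCCGC, TTTCGCGC and TTTGCCGC occurred in the Casp2 window once and in 2.14% of all windows, and that match shared no base with the GC box. Of the members, Casp1 was the one with a match to the interferon response element, searched as GAAA repeated after 2 free bases on both strands, which 3.92% of all windows held. The 3 windows had a GC content of 66.0% for Casp2, 72.0% for Casp9 and 73.7% for Apaf1, against a median of 51.7% and a 5th to 95th percentile of 35.3% to 72.7% over all windows. These matches describe letters and were not tied to binding or to the values that follow.

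Levels are given as scaled intensity, the background-subtracted spot intensity divided by the median of the rat probes on the same array, so that 1 is the median probe. A probe entered the tests only if the median of its 24 values exceeded 0.554, a limit set at the 35th percentile of such medians, which kept 22025 probes. The groups were compared with limma on log2 values, and a probe was called when its Benjamini-Hochberg adjusted p over all tested probes was below 0.05 and its change was at least 1.2-fold. The levels of different probes are not set against each other, since probes differ in how well they bind. Rod photoreceptor markers were present on all arrays, as retina should give, and their summed scaled intensity was 121 to 272 in 3M control, 202 to 328 in 3M STZ and 197 to 360 at 1M. The median unscaled intensity of the arrays was 149 to 308 in 3M control and 125 to 164 in 3M STZ. The spread of the arrays differed too, with an interquartile range of log2 intensity of 1.48 to 2.23 in 3M control, 2.07 to 2.70 in 3M STZ and 3.36 to 3.67 at 1M. Of all tested probes, 54.1% were called between STZ and control at 3M, mostly as higher, and 0.00908% at 1M. A change in any member at 3M is therefore read against the median of all tested probes, which was 0.44 on the log2 scale. The median change at 3M differed with probe level. It was -0.44 for the 11824 probes under the limit in the fit without the filter. For the 15504 probes kept by the stricter filter on bacterial probes, described below, it was 0.54. A member's distance from 0.44 and its percentile may therefore in part reflect its level, which was not tested.

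Casp9, Apaf1, Casp2 and Bax were above the limit and were tested, while the 5 probes of Bcl2, Bcl2l1, Casp1 and Casp6 were below it. The plot of scaled intensity by array shows all 8 genes. Their probes were GE13553 for Casp9, GE1157948 for Apaf1, GE22053 for Casp2 and GE20309 for Bax. The bacterial probes, which should find no rat RNA, set a stricter bar. Taking the 95th percentile of those bacterial probes as a bar on each array, Casp2 cleared it on 24 of 24 arrays, Casp9 on 18, Apaf1 on 12 and Bax on 11. At 3M, Casp9 passed that level on 1 of 6 control and 5 of 6 STZ arrays, and neither Apaf1 nor Bax passed it on any of the 12 arrays.

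**Figure D1:**
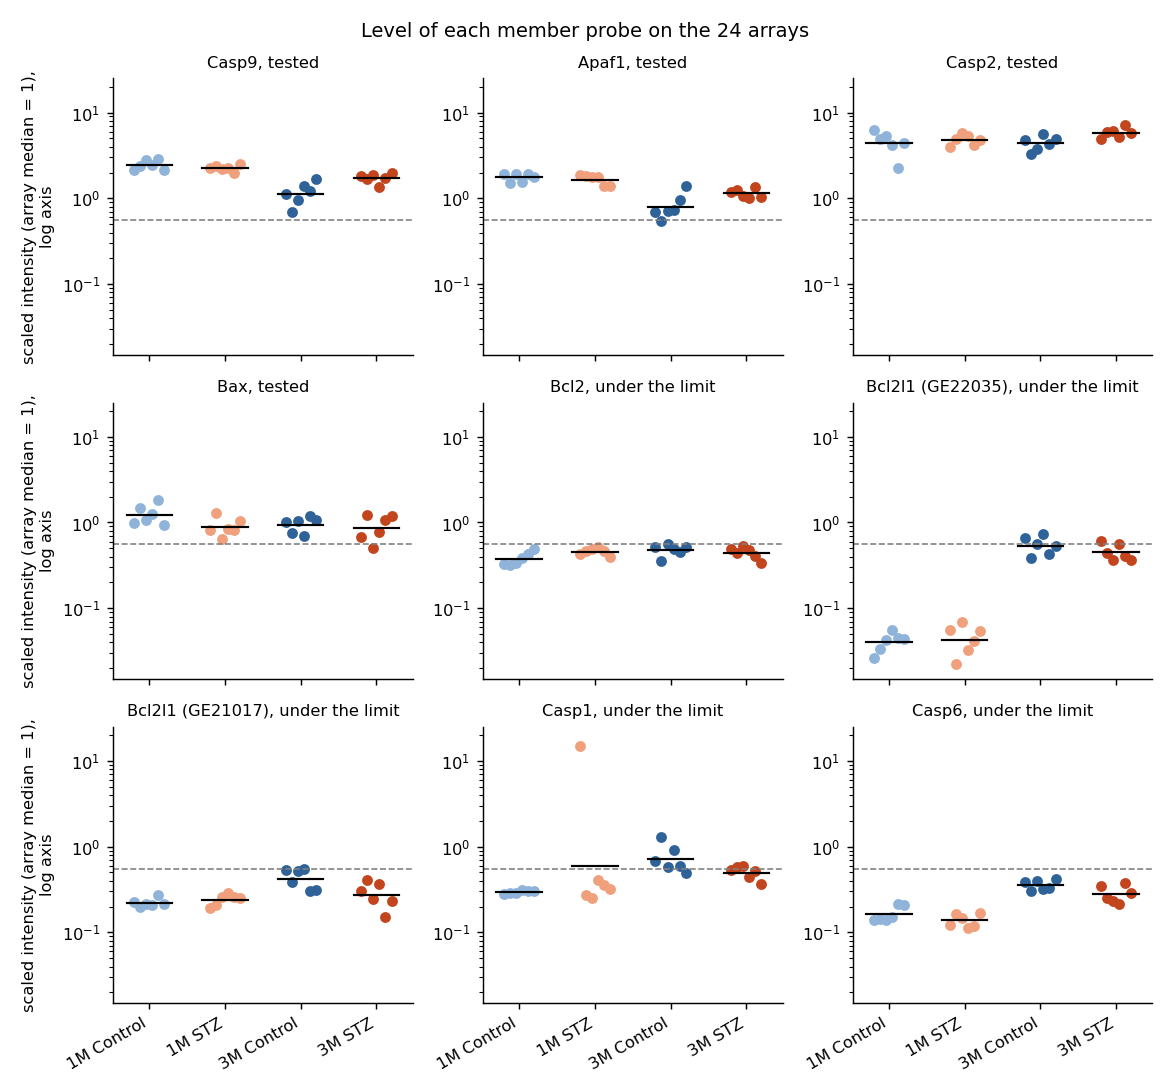
Scaled intensity (array median = 1, log axis) of each member probe on the 24 arrays by group, with a point per array, a line at the geometric mean of each group of 6 and a dashed line at the detection limit of 0.554. On this scale Casp9 and Apaf1 lie higher in 3M STZ than in 3M control with overlap (without scaling they differ by -0.01 and -0.10 in log2), and the Bcl2, Bcl2l1 and Casp6 probes stay near or below the limit, and Casp1 was above it on 8 of 24 arrays, with 1 array at 14.7.

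Casp9 and Apaf1 rose in the 3M STZ retina on the scale relative to the array median, while without any scaling between arrays their differences were -0.01 and -0.10 and were not called. Neither was called at 1M. Of the 4 tested members, these 2 were called at 3M, both as higher, where 50.5% of all tested probes were called higher and 3.55% lower. In whole retina, a change in the number of cells of a type and a change in RNA per cell cannot be told apart.

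Casp9 encodes the initiator caspase of the apoptosome. Its scaled intensity at 3M ran from a lowest of 0.687 over a median of 1.17 to a highest of 1.69 in control and from 1.35 over 1.77 to 1.98 in STZ. The upper control arrays reached into the STZ range, and all 6 STZ arrays lay above the control mean. On the log2 scale the means were 0.18 ± 0.45 (SD, n = 6) and 0.79 ± 0.19 (SD, n = 6). This was a rise of 0.61 with a standard error of 0.16 and a 95% interval of 0.28 to 0.94 (limma, adjusted p = 0.0041). Only 1 of 6 control arrays at 3M was above the bacterial bar, so the rise is not read as an exact fold. Relative to the median of all tested probes the rise was 0.16, which placed Casp9 at percentile 69.4 among them. At 1M the lowest, median and highest values were 2.12, 2.40 and 2.86 in control and 1.97, 2.27 and 2.53 in STZ. These ranges overlap in part, with the STZ range set lower. The log2 difference was -0.10 with a 95% interval of -0.44 to 0.23. The effect at 3M exceeded that at 1M by 0.71 with a standard error of 0.23 (limma interaction, adjusted p = 0.0396), where 15.5% of tested probes were called in that comparison and 14.8% as higher. Of the 24 fits that left out 1 array each, 13 lost that call, with adjusted p from 0.0061 to 0.0723 over the 24 limma fits, and none lost the call at 3M. The 13 were those without 1M Control 3 or 5, 1M STZ 3, 4 or 5, 3M Control 1, 2 or 3, or 3M STZ 1, 2, 3, 5 or 6. It was also lost after quantile normalization over all arrays, with 0.67 and an adjusted p of 0.108 in limma.

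Apaf1 encodes the adaptor on which caspase-9 is activated. In 3M control it ran from 0.549 over 0.724 to 1.38 and in 3M STZ from 1.00 over 1.12 to 1.35. Of the 6 control arrays, 5 lay below the whole STZ range and the other, 3M Control 6, above it. The log2 means were -0.32 ± 0.46 (SD, n = 6) and 0.19 ± 0.17 (SD, n = 6). This was a rise of 0.51 with a standard error of 0.17 and a 95% interval of 0.18 to 0.85 (limma, adjusted p = 0.0126). All 6 of 6 STZ arrays were above the control mean. No array of either 3M group was above the bacterial bar, so the rise is not read as an exact fold. The rise was 0.07 above the median of all tested probes, at percentile 58.1. At 1M the values ran from 1.50 over 1.85 to 1.94 in control and from 1.38 over 1.77 to 1.85 in STZ. The difference of -0.09 had a 95% interval of -0.43 to 0.25. The effects at 3M and 1M differed by 0.60, which did not pass the adjustment (limma interaction, adjusted p = 0.0677). After quantile normalization over all arrays it did, with 0.93 (limma interaction, adjusted p = 0.0437). Isolated bright spots, more than 4-fold above every other array of the same time, numbered 128 on 3M Control 2 and 353 on 3M STZ 1 against 1 to 20 on the other arrays. The call of Apaf1 at 3M was lost when 3M Control 2 and 3M STZ 1 were left out together, with 0.40 and an adjusted p of 0.0561 in limma, while Casp9 kept its call at 0.45 with an adjusted p of 0.0197.

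Casp2, the initiator caspase of the stress response, was the one member above the bacterial probes on every array. It ran from 3.29 over 4.56 to 5.68 in 3M control and from 4.95 over 5.86 to 7.08 in 3M STZ. The control arrays reached above the lower STZ arrays, while 6 of 6 STZ arrays were above the control mean. The log2 difference was 0.40 with a 95% interval of 0.02 to 0.78, and it did not pass the adjustment (limma, adjusted p = 0.0678). It lay 0.04 under the median of all tested probes, at percentile 45.7. Leaving out 1M Control 5 gave an adjusted p of 0.0237 and leaving out 3M Control 4 gave 0.0391 in limma, and array weights gave 0.39 with an adjusted p of 0.0135. With array weights 13929 of the 22025 tested probes were called at 3M, against 11911 without them. Under quantile normalization the difference turned to -0.13. At 1M the control arrays ran from 2.24 over 4.65 to 6.32 and the STZ arrays from 3.98 over 4.90 to 5.83, with the STZ range inside that of the controls. The difference there was 0.13 with a 95% interval of -0.25 to 0.52, and without 1M Control 5 it was -0.06.

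Bax, which encodes the pore former of the outer mitochondrial membrane, was the tested member with differences below 0 at both times. In 1M control it ran from 0.932 over 1.15 to 1.81 and in 1M STZ from 0.641 over 0.836 to 1.30. The groups overlapped, and 1 of 6 STZ arrays lay above the control mean. The log2 difference at 1M was -0.46 with a standard error of 0.21 and a 95% interval of -0.89 to -0.02, at percentile 1.76 of all tested probes, and it was not called (limma, unadjusted p = 0.0425, adjusted p = 1.00). None of the 4 tested members was called at 1M, and Bax was the 1 with an unadjusted p below 0.05, as were 4.21% of all tested probes. At 3M the control arrays ran from 0.696 over 1.02 to 1.18 and the STZ arrays from 0.499 over 0.920 to 1.23, so the STZ range enclosed that of the controls. The difference was -0.12 with a 95% interval of -0.56 to 0.31 (limma, adjusted p = 0.627). This is 0.57 under the median of all tested probes and at percentile 12.2. The geometric mean of Bax in 3M control was 0.94, near the array median, and Bax was not set against probes of like level. Without 3M STZ 3 the difference was 0.03. The effects at the 2 times differed by 0.33, with an adjusted p of 0.392 in limma.

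**Figure D2:**
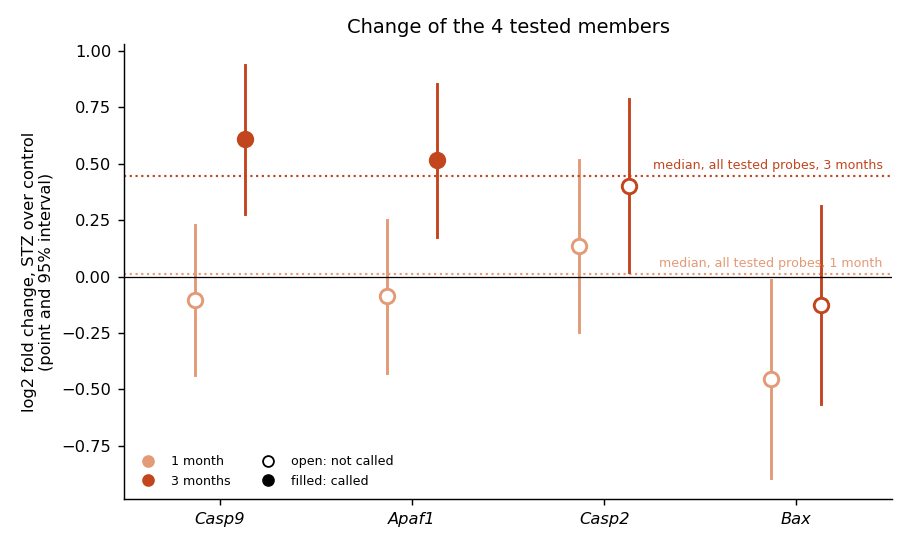
Log2 fold change of STZ against control (axis) with its 95% interval for Casp9, Apaf1, Casp2 and Bax at 1M and 3M from the limma fit of scaled intensity, with 6 arrays per group. Filled points were called, and dotted lines mark the median of all tested probes at each time (0.44 at 3M), near which Casp9 at 0.61, Apaf1 at 0.51 and Casp2 at 0.40 lie while Bax lies at -0.12 (without scaling -0.01, -0.10, -0.21 and -0.74).

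The same spots before scaling gave another picture at 3M. The unscaled intensity of Casp9 ran from 206 over 259 to 297 in control and from 214 over 257 to 300 in STZ. That of Apaf1 ran from 129 over 185 to 220 in control and from 147 over 165 to 192 in STZ. The groups overlapped for both genes, with near-equal medians for Casp9 and a lower STZ median for Apaf1, while the array medians they are divided by were lower in STZ. Casp2 ran from 739 over 991 to 1147 in control and from 812 over 840 to 900 in STZ, and Bax from 122 over 233 to 317 and from 68.4 over 129 to 187. In limma without scaling the differences were -0.01 for Casp9, -0.10 for Apaf1, -0.21 for Casp2 and -0.74 for Bax, and none was called. The median of all tested probes was then -0.17, and 76 of them were called higher and 894 lower. Adding the array's brightness to the fit left Casp9 at 0.46 (limma, adjusted p = 0.0616) and Apaf1 at 0.38 (adjusted p = 0.119), and adding its spread left 0.14 and -0.02. The test of the study's methods, which allows unequal variances, called none of the 4 members at 3M at its own threshold and 16.9% of all tested probes. The part of brightness and spread in the result was not tested apart from these fits.

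Marker genes of other cell types were also called at 3M, to be read against the 50.5% of all tested probes called higher. Of 4 tested microglia and leukocyte markers 3 were called higher, with a summed scaled intensity of 5.27 to 8.69 in control and 8.57 to 13.4 in STZ. Of 5 tested Mueller glia markers 3 were called higher, at 47.7 to 135 against 132 to 178. Of 6 tested lens markers 5 were called higher, at 79.0 to 168 against 207 to 464, and 1 of 4 rod and 1 of 3 ganglion cell markers were called higher. So was the 1 tested endothelium marker, at 3.80 to 15.5 against 9.47 to 20.5. Of 2 erythrocyte markers, Slc4a1 was called higher at 0.43 in log2, while Alas2 at -0.34 was not called. The sum for that list was 1.75 to 2.94 in control and 1.78 to 2.23 in STZ. Of 2 markers of the retinal pigment epithelium, Mertk was called higher at 0.49, while Rpe65 at -0.10 was not called. The sum for that list was 1.88 to 2.95 in control and 2.58 to 3.14 in STZ. None of these lists had a call at 1M. Their part in the rise of the apoptosome genes was not tested.

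The anti-apoptotic members lay below the limit, and their values are given as descriptions of dim spots. Bcl2 encodes the founding inhibitor of the family. It ran from 0.322 over 0.359 to 0.491 in 1M control and from 0.393 over 0.465 to 0.517 in 1M STZ, and from 0.351 over 0.508 to 0.566 in 3M control and from 0.339 over 0.456 to 0.528 in 3M STZ. The groups overlapped at both times, and the log2 differences without the filter were 0.29 at 1M and -0.12 at 3M, neither of them called. With quantile normalization over all arrays the difference at 3M was 0.17. Bcl2l1 encodes BCL-xL and, by another splice form, a pro-apoptotic short product, and its 2 probes, GE22035 and GE21017, were dim in different ways. GE22035 ran from 0.0221 to 0.0690 over both 1M groups and from 0.361 to 0.730 over both 3M groups, and the bacterial probes moved the same way, with group medians of 0.113 and 0.0862 at 1M and 0.683 and 0.557 at 3M. GE21017 ran from 0.307 over 0.458 to 0.547 in 3M control and from 0.153 over 0.277 to 0.411 in 3M STZ. With the filter on dim probes removed, GE21017 was called lower at 3M by -0.64 (limma, adjusted p = 0.0149). Of the 11824 probes under the limit, 34.6% were called lower in that fit. The call was not made after quantile normalization, with -0.80 and an adjusted p of 0.0516, nor after subtraction of each array's 5th percentile, with -1.91 and an adjusted p of 0.0667. The other probe, GE22035, differed by -0.26 and was not called.

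Casp6, an executioner caspase, and Casp1, the inflammatory caspase, were also dim. Casp6 ran from 0.304 over 0.357 to 0.423 in 3M control and from 0.214 over 0.269 to 0.378 in 3M STZ, against 0.114 to 0.214 over both 1M groups. Its difference of -0.35 at 3M without the filter was not called (limma, adjusted p = 0.0745). Casp1 ran from 0.492 over 0.642 to 1.28 in 3M control, the highest value being that of 3M Control 2, and from 0.364 over 0.528 to 0.587 in 3M STZ, and its difference of -0.53 was not called and was -0.36 without 3M Control 2. In 1M control Casp1 lay within 0.278 to 0.313. In 1M STZ it ran from 0.255 over 0.338 to 14.7, the last on 1M STZ 1, an unscaled intensity of 4452. The next value, 0.402 on 1M STZ 4, was under the limit, so no exact fold between them is given. The difference at 1M was 1.02 on the log2 scale with all arrays and was not called (limma without the filter, unadjusted p = 0.109, adjusted p = 1.00). Without 1M STZ 1 it was 0.10, and it was 1.00 to 1.27 with any other 1M array left out. On that array 10 rat probes stood more than 4-fold above all other 1M arrays, and 5 of these, the Casp1 spot among them, lay within 15 rows and 5 columns of that spot, so 4 others did, among 308 rat probes there. That window was set after the values were seen. Of the 8 spots next to it, 5 were brighter than on all other 1M arrays, by at most 0.96 on the log2 scale against 5.19 for the Casp1 spot.

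Casp9 and Apaf1 were the pair of tested members with the highest likeness over the arrays. Their log2 levels had a Pearson r of 0.91 over the 24 arrays and 0.65 for deviations from the group means, and the other pairs of tested members had r from -0.35 to 0.29 over the 24 arrays. These are descriptions, since the arrays share their scaling and fall apart by time point. By the same measure over 2811 genes, Psma5, a proteasome subunit, was the gene most like Casp9 at 0.975 and also the gene most like Apaf1 at 0.963. Tmed10 followed for Casp9 at 0.970 and Eif4a1 for Apaf1 at 0.960. Cdc5l at 0.85 and Dync2h1 at 0.84 were most like Casp2, and Cap1 at 0.85 and Hk2 at 0.83 most like Bax.

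**Figure D3:**
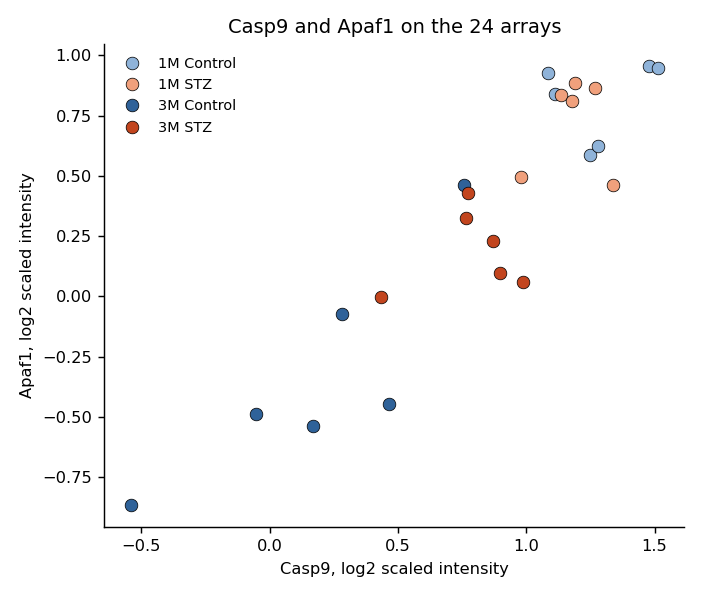
Log2 scaled intensity of Apaf1 against that of Casp9 on each of the 24 arrays, marked by group. On this scale most 3M control arrays lie lowest, the 3M STZ arrays among and above them and the 1M arrays of both groups highest, and r over all arrays was 0.91, while without scaling the 3M groups differ by -0.01 for Casp9 and -0.10 for Apaf1.

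Among 74 other genes of these pathways, 49 had a named probe and 33 were tested. At 3M, 16 of the 33 were called higher, 2 lower and 15 were not called, and their median was 0.48 against 0.44 for all tested probes. The share called higher, 48.5%, was close to the 50.5% of all tested probes. The 2 that fell were Mcl1 and Parp1. Without scaling between arrays 3 of the 18 were called, the same 2 as lower and Gadd45a as higher. None was called at 1M in limma, where 2 had an unadjusted p below 0.05, Fadd at 0.38 and Trib3 at -0.58. In the difference between the times 6, or 18.2%, were called, against 15.5% of all tested probes.

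In the BCL2 family, 5 of 11 tested genes rose, 1 fell and 5 were not called, where 50.5% of all tested probes were called higher. Bik, a BH3-only activator of apoptosis, ran from 0.950 over 2.21 to 3.40 in 3M control and from 3.66 over 3.84 to 5.32 in 3M STZ, a rise of 1.04. Bnip3l, a mitophagy receptor, ran from 5.00 over 12.7 to 18.6 in control and from 19.4 over 23.7 to 26.6 in STZ, a rise of 0.95. The groups did not overlap for either gene, as for 10.2% of all tested probes. The BH3-only genes Hrk and Bbc3 rose by 0.65 and 0.62. Mcl1, an inhibitor of the BCL2 class, fell by 0.37 (limma, adjusted p = 0.0262). Of these, Bnip3l and Bbc3 were not called after either quantile normalization.

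Of the mitochondrial death factors, 3 of 4 rose, against the same 50.5% of all tested probes. These were the channel genes Vdac1 by 0.84 and Vdac2 by 0.79, neither called after quantile normalization, and Cycs, the gene of cytochrome c that APAF1 binds, by 0.51. Cycs turned to -0.08 after quantile normalization and to -0.11 without scaling, and lost its call without 3M Control 2 (0.33) and without 3M STZ 2, 5 or 6. The 2 tested inhibitors of apoptosis, Birc2 at 0.48 and Birc5 at 0.22, were not called, and the other tested Birc2 probe was at -0.21. Of 7 death receptor and adaptor genes, 3 were called higher relative to the array median, the TNF receptor gene Tnfrsf1b at 0.71, the adaptor gene Fadd at 0.50 and the receptor gene Fas at 0.39, though without scaling Fadd turned to -0.12 and Fas to -0.22. The Fas call was also lost without 3M STZ 5 (0.33). Tnfrsf1b and Fas were above the bacterial bar on 0 of 12 arrays at 3M, and the median of Fas in 3M control was 0.484, under the limit for testing. In the inflammasome list that surrounds Casp1, Il18 was the 1 gene tested and was not called, with 0.53 and an adjusted p of 0.090 in limma.

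The stress genes held the largest change of all the lists. Of 3 tested, 2 were called higher, against 50.5% of all tested probes. Gadd45a, a growth arrest and DNA damage gene, ran from 2.84 over 4.71 to 7.56 in 3M control and from 11.0 over 13.7 to 16.8 in 3M STZ. No array of one group reached the other, and the rise was 1.48 (limma, adjusted p = 1.3e-05). It was called without scaling too, at 0.86 (adjusted p = 0.0430), and after quantile normalization, at 0.90. In the same list Ddit3, a factor of the unfolded protein response, rose by 0.74, though it was at 0.05 and not called after quantile normalization, and Trib3, a kinase-like gene of the same response, was not called, at -0.33. Parp1, a DNA repair enzyme and caspase substrate, fell by 0.84 on one probe (limma, adjusted p = 0.0025) and differed by 0.04 on its other probe, which was not called. The first probe was above the bacterial bar on 4 of 12 arrays at 3M, and its median in 3M STZ was 0.690. The level of Bad itself is not analysed here. Of 4 tested genes of its kinases and 14-3-3 proteins, 3 were called higher, against 50.5% of all tested probes. These were genes of the 14-3-3 proteins that hold BAD in the cytosol. Ywhab rose by 0.77, Ywhah by 0.71 and Ywhag by 0.67 on one probe and 1.13 on its other, against a median of 0.44 for all tested probes. The kinase gene Akt1, at 0.46, was not called (limma, adjusted p = 0.0666). On the first probe none of the 3 was called after quantile normalization or without scaling between arrays. Quantile normalization turned Ywhag to -0.13 and Ywhah to just below 0.

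**Figure D4:**
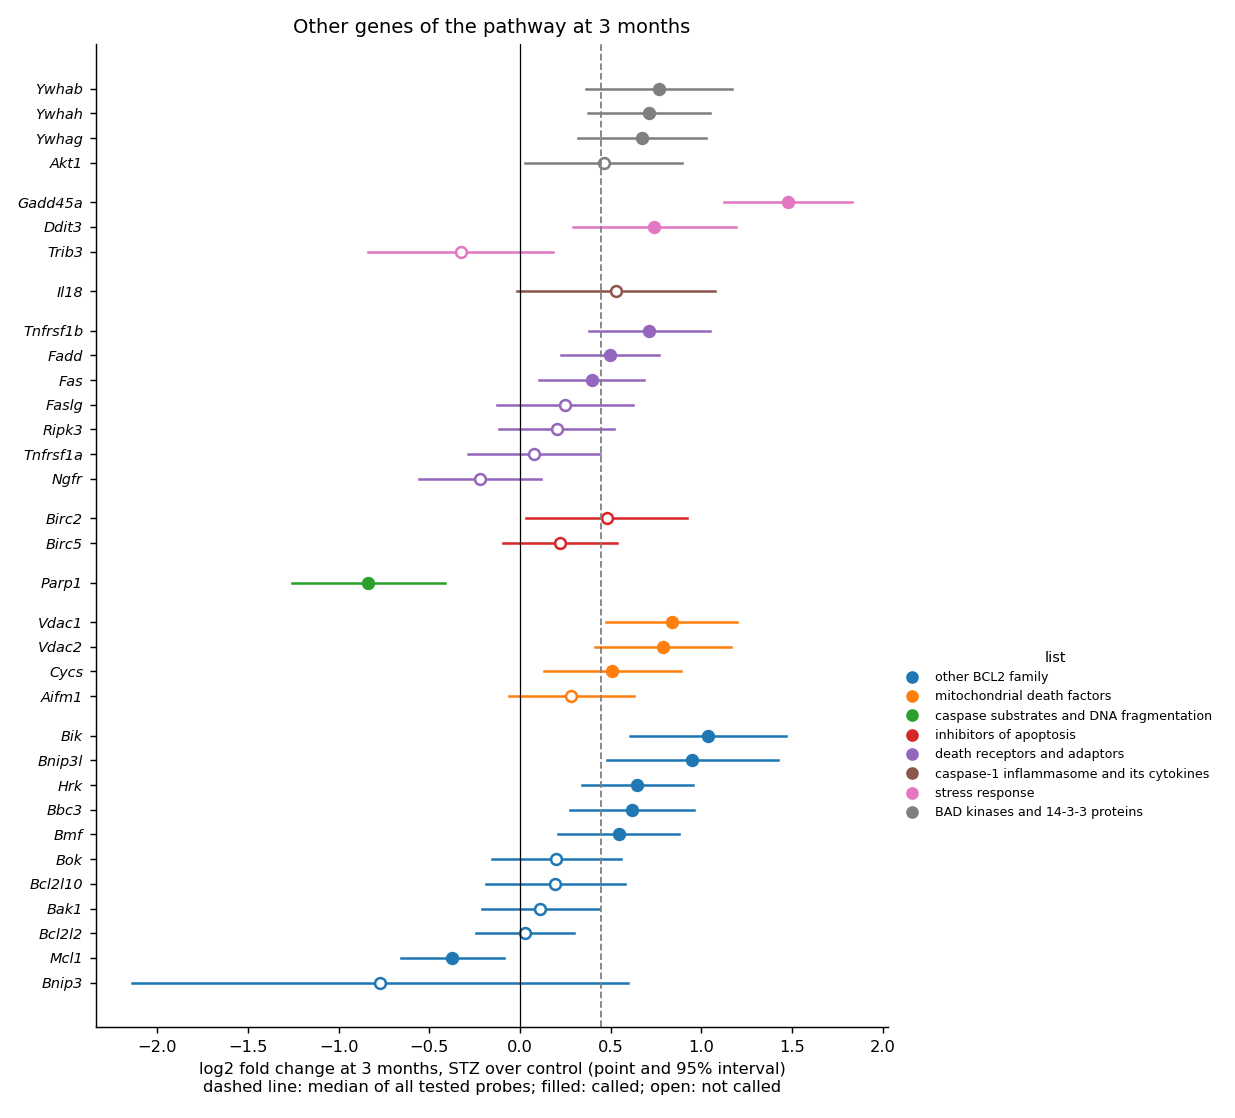
Log2 fold change of STZ against control at 3M (axis) for the 33 other tested genes of the pathways, grouped by list, from scaled intensity with 6 arrays per group. Gadd45a at 1.48 lies highest, Parp1 at -0.84 lowest, and most other genes lie around the median of all tested probes at 0.44.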

How the data were processed

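Retinal RNA of rats was measured on 24 arrays. Per the labels and the study's methods, biotin cRNA was bound to CodeLink arrays, stained with Alexa Fluor streptavidin and scanned, and the authors excluded defective spots and subtracted the background. The deposited values are linear intensity per probe, before and after division by a constant close to each array's median. The second equalled the series table in all values within 1e-06. Here the first was divided by each array's median over 33849 rat probes (62 bacterial probes left out), set to at least 0.01 and put on the log2 scale.

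Groups came from sample titles. limma 3.58.1 in R 4.3.3 fitted 1 model of 4 groups to 22025 probes, was tested on simulated data, and gave STZ against control at each time and their difference. A call needed an adjusted p below 0.05 (Benjamini-Hochberg) and 1.2-fold. The labels do not tie arrays to rats, so p-values measure the spread between arrays, which may in part be technical, and precision is bounded by 6 arrays a group. Of 5469 probes with a RefSeq accession, 4674 matched a symbol (4012 genes). Tables were made in Python 3.11.15 with pandas 2.3.3 and drawn with matplotlib 3.10.9.

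Named were the members, up to 4 called genes of largest change per list and, for each tested member, the 2 genes of highest r over the arrays. Other genes and counts were named after their values were seen. Some genes of the pathway lists are not reported here. The members and lists were chosen with earlier results of these data known. Alternatives were the methods' test (unequal variances), quantile normalization, the deposited normalized values, the series table, another background, filter, floor or model, a replicate block, array weights, brightness or spread as a covariate, and each array left out.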

Additional observations from a re-analysis of the deposited data

Results flagged for a closer look

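In 1M STZ the Casp1 probe was far from the others on 1M STZ 1, at a scaled intensity of 14.7, with a gap to the next array of 0.887 of the range of the 6 log2 values, above the critical value of 0.625. Of 36 groups looked at, this was the 1 that passed, and chance gives about 1 in 20 groups.

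The difference between STZ and control was larger at 3M than at 1M by an interaction term in limma for Casp9 (0.71) and for 6 other pathway genes. These were Gadd45a (1.19), Bik (1.18), Tnfrsf1b (0.80), Vdac1 (0.76), Ywhah (0.76) and Fas (0.63). The median of all tested probes in the same comparison was 0.44. In it 15.5% of all tested probes were called, against 18.2% of the 33 other pathway genes. Casp9 lost this call in 13 of the 24 fits that left out 1 array each. It also lost the call with brightness in the fit, without scaling and with quantile normalization. Since the 1M and 3M rats and arrays were separate sets, time with diabetes and array set cannot be told apart in these differences.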

How the results depend on the processing

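Of the members, 2 were called at 3M, 0 at 1M and 1 in the difference between times, with 18 other pathway genes at 3M. Leaving out 1 array at a time gave 2 to 3, 0 to 0, 0 to 2 and 16 to 21. The cause of the changes below was not tested. At 3M the methods' test called 0 members at its own threshold and 0 after adjustment, with 6 and 2 other genes. Of all 22025 tested probes it called 3722 and 1921. Brightness as a covariate gave 0 members, 0 in the difference and 11 other genes, spread 0, 0 and 0, and no scaling between arrays 0, 0 and 3. Of the 22025 tested probes at 3M, brightness left 4058 called, spread 0 and no scaling 970, against 11911 without these changes. Leaving out 3M Control 2 and 3M STZ 1 together gave 1 member and 0 in the difference. Quantile normalization within times gave 0 in the difference and 9 other genes, subtraction of the 5th percentile 0 in the difference, and array weights 2, while quantile normalization over all arrays gave 1, Apaf1 in place of Casp9. Array weights called 10325 of the 22025 tested probes in the difference, against 3414 without them. Quantile normalization called 866 within times and 2387 over all arrays, and the subtraction 2637. No scaling and the omission of both arrays were added after seeing the data.

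Directions turned at 3M without scaling for Casp9 (-0.0082), Apaf1 (-0.10), Casp2 (-0.21), Fas (-0.22), Fadd (-0.12) and Cycs (-0.11), and with spread in the fit for Apaf1 (-0.016), Casp2 (-0.028), Fas (-0.060), Cycs (-0.081) and Ddit3 (-0.093). Both quantile normalizations turned Casp2 to -0.13, Cycs to -0.077 over all arrays and -0.078 within times, Ywhag to -0.13 and Ywhah to -0.0057 and -0.0051. With 1 array left out, Bax at 3M lay between -0.23 and 0.033 and turned without 3M STZ 3, and Casp2 at 1M lay between -0.059 and 0.24 and turned without 1M Control 5, as it did without scaling (-0.15). The difference between times turned for Casp2 with both quantile normalizations (-0.27), spread (-0.17) and no scaling (-0.063), and for Bax without scaling (-0.0010).

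The share of higher calls among all probes at 3M was 93.4%, against 78.1% and 80.6% with quantile normalization over all arrays and within times and 69.4% with no filter, and the median moved from 0.44 to 0.16 and 0.14 with the first pair. With no filter and quantile normalization over all arrays the share was 53.7%. Without scaling between arrays it was 7.84%, with a median of -0.17. Replicate numbers did not pair the arrays, since same-numbered deviations had r from -0.17 to 0.25 at 1M and from -0.24 to 0.22 at 3M. The arrays correlated best with their own number in 2 of 6 pairs at 1M and 1 of 6 at 3M. The replicate block left the counts at 2, 0, 1 and 18. The difference between times could not be computed for the methods' tests or for separate models. The limit of detection bounds what can be said of Bcl2, Bcl2l1, Casp1 and Casp6, and Bax was left out by the filter on bacterial probes.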
